A study of Mus musculus with 6 samples.

Results

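The 200 sharp peaks were the narrow regions in which Bcl6 ChIP tags lay most densely. They were chosen from a table of 3878 Bcl6 peaks in cortical progenitors as the 200 with the most tags per base among the 2993 peaks of at most 2000 bp. The other 2793 peaks of that width serve as the comparison throughout, and 885 wider peaks were left aside. The cells were grown from A2 lox.Cre Bcl6 mouse embryonic stem (ES) cells, a line in which tetracycline or its relative doxycycline switches on a Bcl6 transgene. All libraries came from cells at differentiation day 12, after cyclopamine at 400 ng/ml, a Sonic hedgehog pathway inhibitor, and 24 h of doxycycline at 1 µg/ml. An antibody to Bcl6 was used to precipitate 3 of the libraries and 3 hold input DNA, and the submitters pooled each group of libraries for analysis. Every value of a peak is therefore 1 pooled value of the authors' table, with no replicate error. Uninduced cells were not analysed here, so transgenic and endogenous Bcl6 cannot be told apart, and the tables hold no expression values with which to check the identity of the cells.

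Bcl6 is a transcriptional repressor with C-terminal zinc fingers that bind DNA and an N-terminal BTB domain that recruits corepressors. It is best known for holding B cells in the germinal centre programme, and in the developing cortex it promotes the passage from progenitor to neuron, partly by silencing Notch targets such as Hes5. Its DNA sequence resembles the palindrome bound by the STAT factors of cytokine signalling, and several genes induced by STATs, such as Cish and Socs2, are known Bcl6 targets in other cells.

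Sequence was read at gene starts that lay wholly inside a sharp peak, from RefSeq promoter windows of 300 bases (250 before and 50 after a start) on GRCm38.p6, the assembly also called mm10. Only peaks at a gene start could be read in this way, which left out most of the sharp peaks far from genes. The Bcl6 core was searched as TTCNAGGAA and the STAT-type palindrome as TTCNNNGAA, which contains every core match, on both strands, with N standing for any base. The following 4 sites are shown because they are the matches at gene starts of the STAT-induced feedback gene Cish, the neuroendocrine chaperone gene Scg5, the predicted gene F630042J09Rik and Bcl6 itself. They lie at chr9:107296654-107296683 (plus strand), chr2:113829123-113829152 (minus strand), chr13:67278582-67278610 (plus strand) and chr16:23988952-23988980 (minus strand), each printed 5′ to 3′ on that strand with the palindrome matches in capitals.
Cish: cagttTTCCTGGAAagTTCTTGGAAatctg
Scg5: aatgccTTCCAGGAATTCTGGGAAggcctc
F630042J09Rik: tgcgaaggaaTTCCTGGAActcaggtagg
Bcl6: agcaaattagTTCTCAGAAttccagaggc
The Cish stretch holds a core match and a second palindrome, and the Scg5 stretch likewise holds one of each, directly next to each other. At Bcl6 the palindrome is of the STAT type and is no core match. In RefSeq the Cish and F630042J09Rik stretches overlap the starts of those genes, the Bcl6 stretch lies before the Bcl6 start inside the long noncoding RNA gene Gm31527, and the Scg5 stretch lies in no gene.

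For 3 more gene starts with a core match, the 250 bases before the start are printed because no RefSeq gene overlaps them and the match lies close to the summit, the position with the most overlapping tags. They are the long noncoding RNA C330002G04Rik inside the densest of the sharp peaks, assigned by the authors' list to the more distant Klf9 (chr19:23075907-23076156, minus strand), Scfd2, a Sec1 family member (chr5:74531743-74531992, minus strand), and 1810037I17Rik (chr3:122924147-122924396, plus strand). Capitals mark the core match and, in C330002G04Rik, also the hexamer CACGTG.
C330002G04Rik: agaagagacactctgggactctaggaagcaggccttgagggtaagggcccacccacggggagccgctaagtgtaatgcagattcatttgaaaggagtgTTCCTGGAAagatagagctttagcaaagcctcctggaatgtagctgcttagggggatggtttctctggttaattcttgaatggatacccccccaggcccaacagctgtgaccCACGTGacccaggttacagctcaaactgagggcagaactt
Scfd2: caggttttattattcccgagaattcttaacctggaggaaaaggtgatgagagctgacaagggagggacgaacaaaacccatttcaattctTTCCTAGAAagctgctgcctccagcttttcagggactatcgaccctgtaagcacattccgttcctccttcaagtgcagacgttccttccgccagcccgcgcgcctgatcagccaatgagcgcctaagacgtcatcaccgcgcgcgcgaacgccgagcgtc
1810037I17Rik: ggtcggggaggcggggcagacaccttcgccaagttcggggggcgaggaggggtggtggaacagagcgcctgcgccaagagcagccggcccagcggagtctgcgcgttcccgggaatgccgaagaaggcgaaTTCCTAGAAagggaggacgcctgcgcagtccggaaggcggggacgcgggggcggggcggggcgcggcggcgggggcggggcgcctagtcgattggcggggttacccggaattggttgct
The first base of the match was 152 bases before the start of the printed C330002G04Rik window, 160 before it in Scfd2 and 119 before it in 1810037I17Rik.

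Another set of 3 stretches carries repeated copies of CACGTG, the E-box bound by Myc, Max and USF family factors, and is shown because these were the sharp peaks with the most copies. They lie before the starts of Lamp1, a lysosomal membrane protein (chr8:13158911-13159160, plus strand), Cdk4, the cyclin D partner kinase of the G1 phase (chr10:127063285-127063534, plus strand), and Zmym6, a zinc finger protein (chr4:127077133-127077382, plus strand). Capitals mark the E-boxes.
Lamp1: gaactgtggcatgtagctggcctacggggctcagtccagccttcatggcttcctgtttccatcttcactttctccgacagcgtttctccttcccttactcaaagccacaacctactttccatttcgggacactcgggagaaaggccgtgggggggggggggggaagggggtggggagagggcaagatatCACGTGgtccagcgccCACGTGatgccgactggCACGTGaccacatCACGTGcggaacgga
Cdk4: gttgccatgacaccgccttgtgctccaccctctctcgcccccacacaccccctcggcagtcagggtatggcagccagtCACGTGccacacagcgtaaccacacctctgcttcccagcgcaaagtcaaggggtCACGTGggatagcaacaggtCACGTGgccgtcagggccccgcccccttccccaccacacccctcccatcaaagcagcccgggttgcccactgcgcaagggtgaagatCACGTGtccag
Zmym6: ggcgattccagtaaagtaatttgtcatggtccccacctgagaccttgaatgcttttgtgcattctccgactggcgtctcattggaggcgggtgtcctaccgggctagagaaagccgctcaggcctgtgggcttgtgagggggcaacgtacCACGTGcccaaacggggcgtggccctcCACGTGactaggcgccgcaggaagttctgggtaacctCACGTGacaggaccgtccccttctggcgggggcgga
Lamp1 and Cdk4 carry 4 copies each in the printed bases, and Zmym6 reaches 4 with a copy after the start.

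The densest sharp peak held 195 tags per kb and the last of the 200 held 61.3, with a median of 70.9 tags per kb. The other narrow peaks had a median of 38.1. These densities chose the members, so they and the values of the next sentences are a description. The sharp peaks held 24 to 321 tags, with a median of 94, against a median of 48 in the other narrow peaks. Their widths ran from 356 to 1971 bp, with a median of 1204 bp against 1262 bp. The 200 peaks covered 249 kb and held 20461 tags, which is 0.175% of the 11718276 ChIP tags kept. The summit lay a median of 77 bp from the centre of a sharp peak and 123 bp from the centre of another narrow peak.

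**Figure D1:**
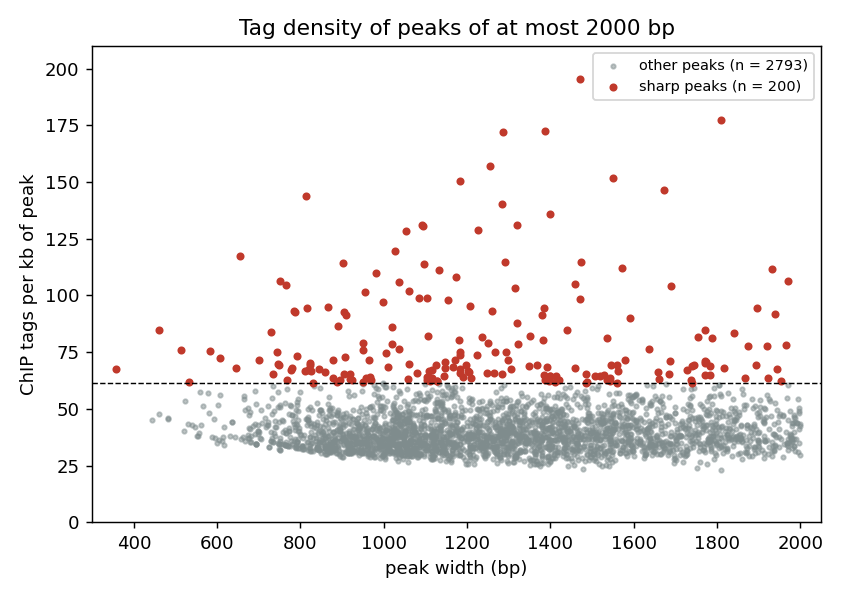
Tag density (ChIP tags per kb of peak, y axis) against peak width (bp, x axis) for the 200 sharp peaks (red) and the 2793 other peaks of at most 2000 bp (grey), with a dashed line at the lowest member, 61.3 tags per kb. Sharp peaks occur at widths from 356 to 1971 bp, and a few stand well above the mass of points near the line.

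Members and non-members met without a gap at the limit. Just inside it were peaks at the Wnt coactivator gene Bcl9 (61.7 tags per kb), between Ppfia3 and Lin7b (61.6), at the chaperone gene Hsp90aa1 (61.5), at Afg3l2 (61.4) and near Kazald1 and Sfxn3 (61.3). Just outside were, among others, the peaks listed for Hoxb13 (61.2), Mgme1 (61.2), Oxgr1 and Mbnl2 (61.1), and Nanos3 and Zswim4 (61.0). These 4 outside had folds of 58.34, 76.84, 38.3 and 53.19, and the 5 inside 41.22, 31.91, 14.99, 65.02 and 25.13, so fold did not follow density across the limit.

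The sharp peaks had a higher median enrichment over input than the other narrow peaks, a value that the same tags determine. Fold enrichment, the ratio of ChIP to the local input background, ran from 11.17 to 268.62 in the sharp peaks, with a median of 40.6 against 21.7 in the other narrow peaks. It reached 50 in 80 of 200 sharp peaks (40%) and in 35 of the 2793 others, while 3.84% of all 2993 narrow peaks reached it. Nothing is read from this count, since fold and density come from the same tags. All 25 of the highest folds among narrow peaks belonged to sharp peaks, but only 96 of the 200 highest did. At the other end, 36 sharp peaks (18%) had a fold below 21.67, the median of the other narrow peaks. The peak caller's empirical FDR was at most 5% in 190 of 200 sharp peaks and in all 2793 others. The members above 5% included some of the highest folds, such as the Klf9 peak at 25%.

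Distance to a transcription start site (TSS) was not used in the choice. Of the sharp peaks, 94 (47.0%, exact 95% interval 39.9 to 54.2%) had their centre within 1 kb of a listed TSS, against 1641 of the other narrow peaks (58.8%, 56.9 to 60.6%). Far from genes the order was the other way round. A centre over 5 kb from every listed TSS was found in 96 sharp peaks (48.0%, 40.9 to 55.2%) and in 910 others (32.6%, 30.8 to 34.4%). Over 50 kb there were 39 sharp peaks (19.5%, 14.2 to 25.7%) and 257 others (9.20%, 8.15 to 10.3%). The intervals of the sharp and other peaks did not overlap in these 3 comparisons. They cover the counting of peaks only, and no test was made because peaks of 1 pooled data set are not replicates. The remaining members were 57 at 5 to 50 kb, 9 at 1 to 5 kb and 1 with no listed gene, a peak of 77 tags at chr1:122607174-122607828. The median distance was 3844 bp against 372 bp.

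**Figure D2:**
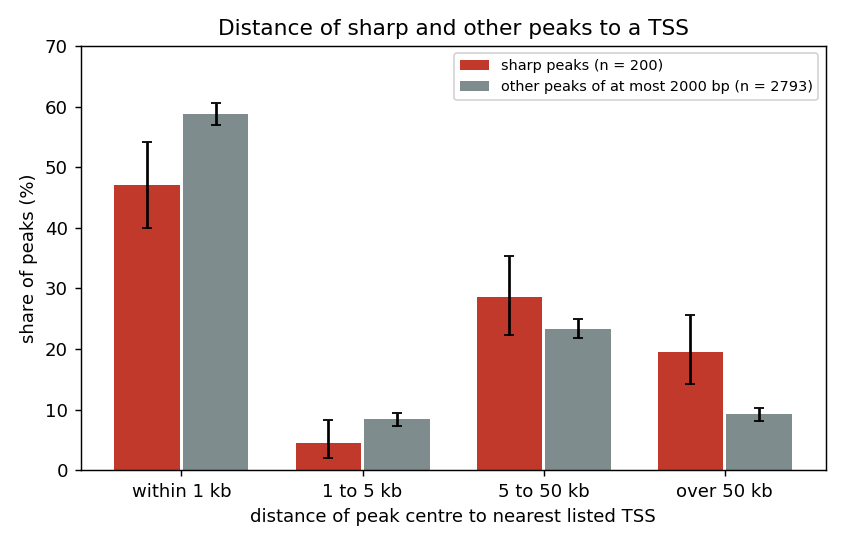
Share of peaks (%, y axis) by distance of the peak centre to the nearest listed TSS (x axis) for the 200 sharp peaks (red) and the 2793 other peaks of at most 2000 bp (grey), with exact 95% intervals as error bars. The sharp peaks are the smaller share within 1 kb (47.0% against 58.8%) and the larger share over 50 kb (19.5% against 9.20%); peaks with no listed gene are not drawn.

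Distance ran together with density inside the narrow peaks, though not in 1 direction. Over 5 kb from every listed TSS lay 66.0% of the 50 densest peaks, 42.0% of ranks 51 to 200, 33.0% of ranks 201 to 500 and 25% of ranks 501 to 1000. The share was then larger again, at 30% of ranks 1001 to 2000 and 38.9% of ranks 2001 to 2993. Both ends of the ranking were thus richer in distal peaks than the middle. Within 1 kb of a listed TSS lay 28% of ranks 1 to 50, 53.3% of ranks 51 to 200 and 60.7% of ranks 201 to 500. In the later bins that share was 68.6% of ranks 501 to 1000, 62.8% of ranks 1001 to 2000 and 49.1% of ranks 2001 to 2993. Median fold among the sharp peaks was 28.99 within 1 kb (n = 94) and 58.79 over 50 kb (n = 39). In the other narrow peaks the corresponding medians were 21.22 and 27.48.

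The densest distal sharp peak lay at chr19:23075226-23076695, 65.3 kb upstream of Klf9, a Krüppel-like zinc finger factor induced by glucocorticoid and thyroid hormone. It held 287 tags at 195 tags per kb, with a fold of 268.62, and had no nearer listed gene. A second sharp peak at chr19:23094410-23095809, 46.1 kb upstream of Klf9, held 190 tags at 136 tags per kb with a fold of 53.19. The pair was separated by 17715 bp and shared Klf9 and, at 936.8 and 956.0 kb, the cation channel gene Trpm3 as listed genes. No other gene was listed for more than 1 sharp peak. The remaining 4 peaks listed for Klf9, 1 at 6.18 kb before the start and the others at 0.702, 11.1 and 28.6 kb beyond it, held 32.7 to 48.6 tags per kb and were not members.

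Other dense peaks away from gene starts lay near genes of several kinds. One between Pim1, a kinase induced by STATs, and Fgd2 (chr17:29398843-29400128) held 221 tags with a fold of 165.96, 91.3 kb from Pim1 and 38.5 kb from Fgd2. The peak 3.84 kb upstream of the zinc finger gene Zfp292 (chr4:34886112-34887497) held 239 tags with a fold of 117.91. A peak of 143 tags and a fold of 193.08 (chr16:42769819-42770910) lay 137 kb from Zbtb20, a BTB zinc finger repressor like Bcl6, and 430 kb from the axonal growth gene Gap43. Near Asb13, which encodes a SOCS box protein, a peak 78.8 kb away held 180 tags with a fold of 198.06. Glce, an epimerase of heparan sulfate synthesis, and Spesp1 were listed for a peak of 158 tags with the same fold as the Zbtb20 peak. Among the 16 densest peaks were also those of Efhd2 and Fhad1 (91.49-fold), of the scaffold gene Mpdz (113.48-fold), of the kinase anchor gene Akap12 (129.57-fold), of Tprg and Lpp (107.71-fold) and of the Ras-responsive zinc finger gene Rreb1 (102.13-fold).

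Among the sharp peaks with a listed gene, those furthest from every listed TSS were not the densest. The member with no listed gene has no such distance and is not ranked here. The furthest of the ranked peaks, 361.8 kb from the neuronal adhesion gene Negr1, held 116 tags at 87.9 tags per kb with a fold of 41.89. It was followed by peaks 284.6 kb from the peroxisome gene Pex2 (39 tags, 40.37-fold), 263.2 kb from Nt5e with Tbx18 (57 tags, 72.70-fold) and 255.4 kb from the neural factor gene Nfia (73 tags, 52.61-fold). Next came those at 255.1 kb from Rapgef5, inside Ptprn2 (110 tags, 80.85-fold), and at 253.0 kb from Igfbp7 (48 tags, 63.05-fold). Of the 96 sharp peaks over 5 kb from a listed TSS, 47 (49.0%) had their centre inside a protein-coding gene in RefSeq. The share in the other narrow peaks at that distance was 443 of 910 (48.7%), within the interval of 38.6 to 59.4% for the sharp peaks.

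Among the dense peaks at gene starts was that of Wrnip1, an ATPase that interacts with the Werner helicase, with 173 tags and a fold of 111.70 at 217 bp upstream of the listed TSS. The Cish peak (chr9:107295998-107297547) held more tags, 235, but had a lower fold of 63.30. Cish encodes a cytokine-inducible inhibitor of STAT signalling. The Bcl6 peak (chr16:23988367-23989268) held 103 tags at 114 tags per kb with a fold of 64.77, its centre 35 bp downstream of the start of the gene that encodes the precipitated protein. Peaks of 81.91-, 78.05- and 75.53-fold lay at 1810037I17Rik, at the Wnt acyltransferase gene Porcn and at Scfd2. The ribosomal protein gene Rpl22 (71.00-fold), the kinase gene Ripk2 (61.70-fold), the chaperone gene Dnajb14 (60.09-fold), the death-associated kinase gene Dapk3 (59.40-fold) and the proteasome gene Psmd3 (50.24-fold) also had a sharp peak at their start.

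Several genes with a known tie to Bcl6 or to the progenitor programme were not members. Socs2, another STAT-induced feedback inhibitor, had the peak with the highest density of the whole table, 273 tags per kb, but at 3603 bp it was wider than the limit. The Notch effector Hes1 had a wide peak of 45.1 tags per kb, at 3592 bp, and a narrow one of 42.7. The peak of the cyclin gene Ccnd2, at 2672 bp, was also wide and held 46.0 tags per kb, and those of Ccnd1 held 27.3 to 39.8. Whatever their width, these Hes1, Ccnd2 and Ccnd1 peaks were less dense than the last member, at 61.3 tags per kb. No peak was listed for Hes5.

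**Figure D3:**
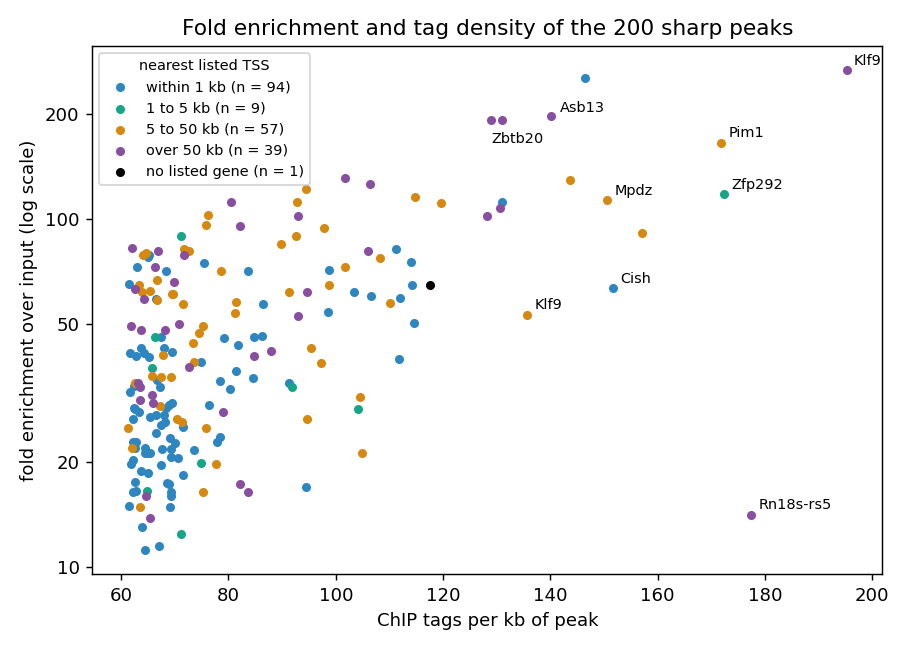
Fold enrichment over input (log axis, y) against tag density (ChIP tags per kb of peak, x) for each of the 200 sharp peaks, coloured by the distance of the peak centre to the nearest listed TSS. The denser of the points labelled Klf9 reaches 268.62-fold, and the point labelled Rn18s-rs5 combines 177 tags per kb with 14.12-fold.

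The member with the second highest density stood apart from the rest. It lay at chr17:39847154-39848962 inside Rn18s-rs5, which RefSeq lists as a pseudogene of the 18S ribosomal RNA, and held 321 tags, the most of any member, at 177 tags per kb. Its fold was 14.12, under the median of the other narrow peaks, and another peak began 46 bp away. Ribosomal RNA genes exist in many near-identical copies, and neither the labels nor the headers say how reads that match several copies were placed. Low folds also occurred at gene starts, with 11.17 at Pias3, an inhibitor of activated STAT, and 11.52 at Polr2a, the largest subunit of RNA polymerase II. Without the 36 members of fold below 21.67, the share within 1 kb was 42.7% and that over 5 kb was 53.0%.

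Sharp peaks at gene starts sat further upstream than the others. Of the 94 within 1 kb, 56 (59.6%, 49.0 to 69.6%) had their centre upstream of the nearest listed TSS, against 699 of 1641 (42.6%, 40.2 to 45.0%). The median offset was 60 bp upstream against 34 bp downstream. The summit was also used in place of the centre, measured to the closest listed TSS with an assigned strand. This was not always the TSS nearest the centre. The counts upstream were then 46 of 71 (64.8%, 52.5 to 75.8%) and 638 of 1340 (47.6%, 44.9 to 50.3%). The quartiles of the centre offset were −184 and 141 bp in sharp peaks and −108 and 182 bp in the others, so the positions overlapped broadly.

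Several sharp peaks far from a listed TSS lay at a start that the authors' list does not use. Of 106 sharp peaks over 1 kb from every listed TSS or with no listed gene, 10 (9.43%) had a RefSeq start within 1 kb of their centre, against 154 of 1152 others (13.4%). The densest Klf9 peak was one of them, with its centre 54 bp upstream of C330002G04Rik. The peak listed for Zfp458 at 9.45 kb lay 76 bp upstream of F630042J09Rik, and the peak at Ankrd24, 5.07 kb from its listed TSS, lay 8 bp from its RefSeq start. With RefSeq starts in place of the list, 82 sharp peaks (41.0%, 34.1 to 48.2%) and 1480 others (53.0%, 51.1 to 54.9%) were within 1 kb of a start. The RefSeq starts used here were not complete, so the RefSeq counts of this paragraph can be too low in both sets. For example, the Psmd3 peak, 59 bp from its listed TSS, had its nearest RefSeq start 56146 bp away.

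The Bcl6 core, part of the sequence printed above, was more frequent at the sharp peaks. A whole promoter window lay inside 74 sharp peaks (99 windows) and 1373 others (1860 windows), and the core occurred in 6 (8.11%, 3.03 to 16.8%) and 18 (1.31%, 0.779 to 2.06%) of these peaks. Per window the core was in 8.08% of the sharp and 1.08% of the other windows, beside 1.59% of all 32817 windows of the table. A peak can hold more than 1 window. Shares of peaks, here and for the motifs below, are therefore not on the scale of shares of windows. The STAT-type palindrome, which includes the core matches, occurred in 8 sharp peaks (10.8%, 4.78 to 20.2%) and in 110 others (8.01%, 6.63 to 9.58%). Per window it was in 10.1% of the sharp and 6.67% of the other windows, beside 8.29% of all windows. For the wider palindrome the intervals overlapped. Of the 6 sharp peaks with a core, 4 were among the 12 with a window in the 50 densest (33.3%, 9.92 to 65.1%), and 2 among 62 at ranks 51 to 200 (3.23%). The share was 2.47% at ranks 201 to 500, 2.66% at 501 to 1000, 0.969% at 1001 to 2000 and 0.254% at 2001 to 2993. A match is a run of letters and does not show that Bcl6 bound there.

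The core matches lay near the summits. The middle of the match was 6 bp from the summit in Scfd2, 9 bp in Cish, 10 bp in 1810037I17Rik, 21 bp in Scg5, 22 bp in C330002G04Rik and 87 bp in F630042J09Rik. The median was 15.5 bp over these 6 sites and 50.0 bp, in a range of 6 to 769 bp, over 19 sites in the other narrow peaks. Palindromes that were no core match were 20 to 333 bp from the summit in sharp peaks, with a median of 151.5 bp over 4 sites, against 177 bp over 101 sites in the others. The one printed for Bcl6 was the furthest, at 333 bp.

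**Figure D4:**
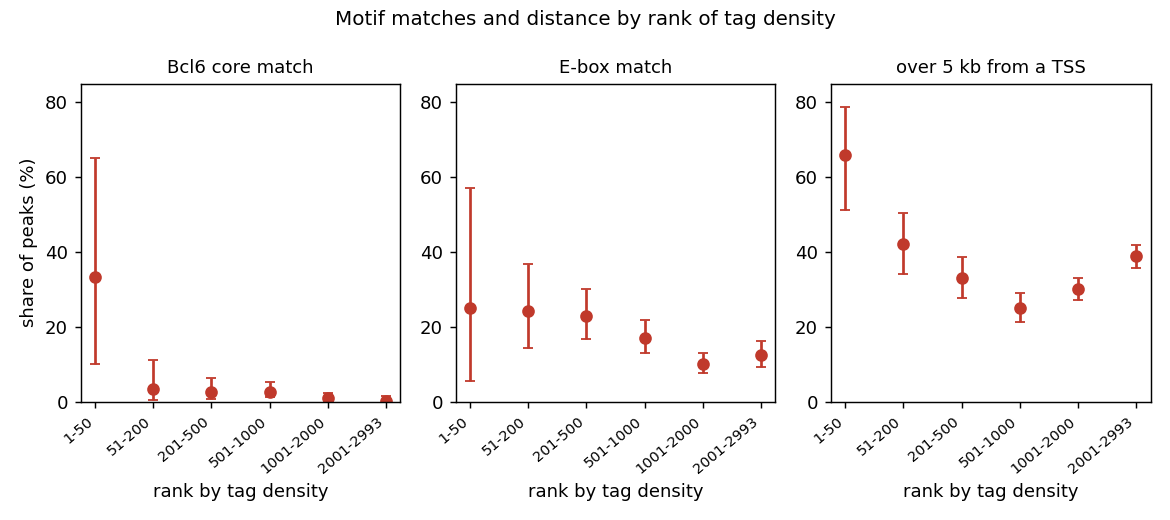
Share of peaks (%, y axis) with a Bcl6 core match (left), with an E-box match (middle) and over 5 kb from every listed TSS (right), by rank of tag density among the 2993 peaks of at most 2000 bp (x axis), with exact 95% intervals as bars. The motif shares are over peaks with a promoter window inside. The core share is 33.3% in the 50 densest peaks and 0.254% in the last bin, and the distal share is lowest, 25%, at ranks 501 to 1000.

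The E-box CACGTG, which reads the same on both strands, also had a larger share at sharp peaks. It occurred in 18 of 74 sharp peaks (24.3%, 15.1 to 35.7%) and in 189 of 1373 others (13.8%, 12.0 to 15.7%), whose intervals overlapped slightly, and in 7.15% of all windows. At least 2 copies were found in 7 sharp peaks (9.46%) and 33 others (2.40%). At least 4 copies were found in 3 sharp peaks, those of Lamp1, Cdk4 and Zmym6 printed above, and in 1 other. The peaks of Lamp1, Cdk4 and Zmym6 had folds of 46.10, 21.87 and 18.86, beside a median of 40.6 in the sharp peaks and 21.7 in the other narrow peaks. The E-box was not limited to the densest ranks. Its share was 25% in the 50 densest peaks (3 of 12 with a window, 5.49 to 57.2%), 24.2% at ranks 51 to 200 and 22.8% at ranks 201 to 500. It was lower further down, at 16.9% of ranks 501 to 1000, 10.1% of 1001 to 2000 and 12.4% of 2001 to 2993.

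The remaining motifs were each searched on both strands. The ETS motif CCGGAAGT was found in 3 sharp peaks (4.05%) and 134 others (9.76%), and in 3.89% of all windows. A consensus for the factor NRF1 was found in 7 (9.46%) and 184 (13.4%), with 4.59% of all windows. Shares of peaks for the GC box GGGCGG (79.7 and 80.8%) and for CCAAT (36.5 and 36.6%) were close. Per window they were 72.7 and 77.3% for the GC box, beside 35.6% of all windows. For CCAAT they were 30.3 and 33.5%, beside 37.4% of all windows. A CTCF core was found in 0 and 2 peaks, a ZBTB33 motif in 0 and 20, and a YY1 motif in 2 and 30, with 0.0366, 0.466 and 0.631% of all windows. A count of 0 among 74 peaks has an exact interval that reaches 4.86%. Median GC content was 64.7% in the sharp windows, 65.7% in the other windows inside narrow peaks and 52.7% in all windows.

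**Figure D5:**
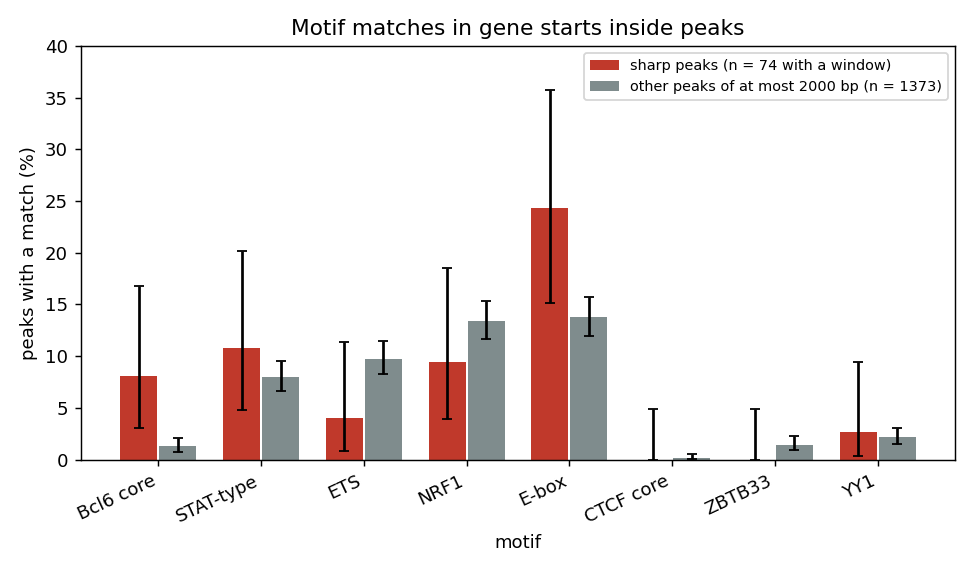
Share of peaks (%, y axis) with a match to each motif (x axis) in a promoter window inside the peak, for 74 sharp peaks (red) and 1373 other peaks of at most 2000 bp (grey), with exact 95% intervals. The Bcl6 core (8.11% against 1.31%) and the E-box (24.3% against 13.8%) have the larger share at sharp peaks; the GC and CCAAT boxes, which are frequent in both sets, are not drawn.

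The authors' list named 311 genes for the sharp peaks out of 3743 named for any narrow peak, or 8.31%. Shares of gene lists below are read beside this figure and are descriptions, since most lists hold few genes with a peak. Of the JAK/STAT and cytokine feedback list, 3 of the 11 genes with a narrow peak had a sharp one: Cish, Pim1 and Pias3. The BTB zinc finger list had 3 of 8: Bcl6, Zbtb20 and Zbtb7c, the last with its peak 81.5 kb inside the gene on chromosome 18. The Krüppel-like factors also had 3 of 8, namely Klf9, Klf3 with a peak 487 bp upstream of its start (62.7 tags per kb), and Klf4 with a peak 56.7 kb away (78.9 tags per kb).

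None of 9 Notch genes with a narrow peak had a sharp one, and neither did any of 10 FGF and IGF genes, 5 Sonic hedgehog genes, 9 cortical progenitor genes or 8 corepressor genes. Bcl9 and Porcn were sharp among 14 Wnt genes, Smad2 among 13 of BMP and TGF-beta, through the same distal peak as Zbtb7c, and Cdk4 among 11 of the G1/S transition. Gap43 was the only one of 8 cortical neuron genes, through the Zbtb20 peak. Of 10 axon guidance genes, 3 had a sharp peak: Epha4, an ephrin receptor, at 457.3 kb, Ephb3, of the same family, at 144 bp, and the semaphorin receptor gene Plxna1 at 18.4 kb. The Epha4 peak was also listed for Pax3, the only sharp member of 3 genes of the mesoderm, endoderm and fibroblast list with a narrow peak. The pluripotency list had 1 of 11, Klf4, and the housekeeping list 1 of 6, Polr2a. Over all lists 19 of 139 genes had a sharp peak (13.7%).

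Sharp peaks were spread over 20 chromosomes, and no narrow peak lay on Y. They were 10 of 81 narrow peaks on chromosome 16 (12.3%), the largest share, and 5 of 136 on chromosome 15 (3.68%), the smallest of these chromosomes. They were no closer to other peaks than the rest. Another peak lay within 10 kb of 34 sharp peaks (17%, 12.1 to 22.9%) and of 461 others (16.5%, 15.1 to 17.9%). No sharp peak had a second sharp peak within 10 kb, and 4 had one within 50 kb. At least 2 genes were listed for 111 sharp peaks (55.5%, 48.3 to 62.5%) and for 1299 others (46.5%, 44.6 to 48.4%), with intervals that overlapped slightly.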

How the data were processed

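Bcl6 ChIP and input DNA (3 libraries each) were pooled by the authors. The submitters' processing notes name Bowtie and mm10; peaks came from MACS 1.4.2, per the file headers, with a p-value cutoff of 1e-05 and 1 tag kept per position, which left 11718276 of 56836596 ChIP tags (20.6%) and 5048582 of 12808138 input tags (39.4%). The authors deposited tags per peak as raw counts, fold enrichment as a ratio to the local input background, the p-value as a score of −10 log10 p and the empirical FDR as a percent. The gene list was deposited as output of GREAT 3.0.0, per the file headers, where a gene's domain begins 5000 bp before its TSS, ends 1000 bp after it and is extended by up to 1000000 bp. Its peak numbers follow the order of the peak table.

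Tags were divided by width for peaks of at most 2000 bp and the top 200 kept. Shares carry exact Clopper-Pearson 95% intervals, which cover the counting of peaks only; with 1 pooled data set no test was made. Duplicate tags beyond 1 per position are not in the counts, so very dense positions are capped. Motifs were searched in RefSeq GRCm38.p6 promoter windows wholly inside a peak. The table is not complete and no genome sequence was used here, so distal peaks were not searched. Python 3.11.15, pandas 2.3.3 and SciPy 1.17.1 were used, and the ranking and motif search were tested on simulated data. The members and gene lists were chosen with earlier results of these data known. Genes named are those of the 25 densest peaks, of the 25 highest folds within 1 kb of a TSS, of the 15 peaks furthest from a TSS, of gene lists, of several sharp peaks and of the limit, plus Bcl6, Socs2, Cish, Klf9, Hes1, Hes5, Ccnd1 and Ccnd2; not every gene of the rule is printed, and some results are not reported here. Genes at motif matches and at ribosomal or histone loci were chosen after their values were seen. Alternatives were the number of members, the width limit, fold in place of density, FDR, chromosomes, window and neighbour distances and the summit. RefSeq starts, members without low folds and partly overlapping windows were added after seeing the data.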

Additional observations from a re-analysis of the deposited data

How the results depend on the processing

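No paired analysis was possible because the libraries of each group were pooled before peaks were called, and for the same reason no replicate could be left out. Taking 100 peaks gave 33.0% within 1 kb, 60.0% over 5 kb, a median distance of 11713 bp and 69.0% with exactly 2 listed genes, against 47.0%, 48.0%, 3844 bp and 54.5% for the 200 members (the report's 55.5% is for at least 2 genes); 400 peaks gave a median distance of 476 bp. A width limit of 1500 bp gave 55.5% over 5 kb and 12.0% with another peak within 10 kb (17% as reported). With no width limit, 37.5% lay within 1 kb, 65.0% had 2 listed genes and 34.5% had a neighbouring peak. The 200 highest folds gave 29.5% within 1 kb, 64.0% over 5 kb, 27.0% over 50 kb (19.5% as reported), a median of 12636 bp, 64.5% with 2 genes and 9.5% with a neighbour. Within 50 kb, 40% had a neighbour. The other alternatives left each value inside its reported interval. So did all 10 for the Bcl6 core share, from 4.92% with 400 peaks to 14.8% with 100. Those intervals are of the sharp peaks alone, and separation from the other narrow peaks was not always kept. With 400 peaks, the interval within 1 kb (49.0 to 59.0%) overlapped the 56.9 to 60.6% reported for the others. For the core, windows of 150 bases (1.49 to 13.3%) and no width limit (2.06 to 14.0%) overlapped the others' reported 0.779 to 2.06%. With 100 peaks or the 200 highest folds, the intervals of these shares stayed apart. The core share rests on 6 peaks of 74 with a promoter window, and 126 sharp peaks had no window to search. The other narrow peaks held fewer tags than the members, with a median of 48 against 94, so their densities are in general less precise. Some members also held few tags, down to 24, and the densities of those members are no more precise.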

Other observations

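Replication-dependent histone genes, which are expressed in S phase, were listed for 6 sharp peaks and for 9 other narrow peaks. Sharp peaks were thus 40% of these 15, beside 6.68% of all 2993 narrow peaks, and this group was chosen after the values were seen. The densest of the 6 lay at Hist1h1a, Hist1h3a and Hist1h4a (chr13:23763318-23765250), with 216 tags at 112 tags per kb and a fold of 39.55. The peak at Hist2h2bb and Hist2h3b had 179 tags with a fold of 16.99, and the narrowest of all members, at Hist2h3c2 and Hist2h2aa2, had 24 tags over 356 bp with a fold of 25.53. Many histone genes of the same type are closely similar in coding sequence, and neither the labels nor the headers say how reads that match several of them were placed.

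The 7 sharp peaks with at least 2 E-boxes in a promoter window, named here after their values were seen, lay at genes of different kinds. Lamp1, Cdk4 and Zmym6 had 4 copies, Amdhd2 had 3, and Atp6v0b, Cd3eap and Dyrk1b had 2. The upstream bases of Amdhd2 overlap the neighbouring gene Atp6v0c. Amdhd2 had a fold of 56.87, Atp6v0b of 45.59, Cd3eap of 32.58 and Dyrk1b of 23.56.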
